A study of Mus musculus with 6 samples.

Results

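Cth and 8 other genes of cysteine and glutathione synthesis (Cbs, Gclc, Gclm, Gss, Gsr, Slc7a11, Mat2a and Ahcy) were followed on 6 mouse expression arrays. All probe sets that the platform annotation gives to 1 of these genes alone were taken, which gave 14 probe sets for 8 of the 9 genes, among 34945 such probe sets for 18193 genes on the arrays. Mat2a had no such probe set and was not analysed here. The cells were MIN6, an insulin-producing line from a mouse insulinoma. Cells electroporated with an siRNA against TDP-43, an RNA-binding protein encoded by Tardbp, were set against cells electroporated with a control siRNA, with 3 arrays per group and 100 pmol of siRNA in each case. The labels do not say whether the 3 arrays of a group came from separate cultures, so the spread between them may be technical, and their number limits the precision. Cth was chosen by its higher signal after TDP-43 siRNA on these arrays, and the other members for their place in its pathway. Its difference, and those of the other members in the same contrast, are therefore given as descriptions with no test.

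Cysteine is the building block that usually limits glutathione, the main small thiol that protects cells from peroxides. It can be made from methionine. Methionine is turned into S-adenosylmethionine, which yields homocysteine once its methyl group is spent, and the transsulfuration enzymes Cbs and Cth then carry the sulfur of homocysteine over to cysteine. Cells can also import cystine through Slc7a11. Cysteine is joined to glutamate by glutamate-cysteine ligase, made of Gclc and Gclm, and Gss adds glycine. Beta cells are known for weak peroxide-removing enzymes, which makes their thiol supply of interest.

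The arrays gave MAS5 signals, linear intensities that the authors had scaled per array, with medians of 73.3 to 77.8 after TDP-43 siRNA and 72.3 to 79.97 after control siRNA. Differences below are log2(signal + 12) in TDP-43 siRNA minus control siRNA, which understates changes of dim probe sets, and each gene is represented by its brightest probe set unless another is named. The siRNA target was lower on all 5 probe sets of Tardbp, by 0.85 on the brightest, with signals of 2257, 2249 and 1836 in TDP-43 siRNA cells and 3748, 3940 and 3699 in control cells. Of 9 beta cell markers with a probe set, 0 were under the filter on low signals, and their summed signal ranged from 91228 to 100667 after TDP-43 siRNA and from 93355 to 98586 after control siRNA. Of 14 fibroblast, endothelial and immune cell markers, 7 lay under that filter, and their summed signal was 492 to 609 in TDP-43 siRNA cells and 433 to 676 in control cells. Markers of other islet and pancreas cells were not all dim. The summed signal of 9 alpha, delta, PP and epsilon cell markers was 29749 to 32649 after TDP-43 siRNA and 32303 to 34541 after control siRNA. Of these markers, 3 lay under the filter. Ttr gave the largest part of the sum, with 20776, 22206 and 22790.5 against 21621, 22827 and 23853. Gcg read 7735, 8000 and 8761 against 9792, 10654 and 7345. Sst was dim and went the other way, with 97.3, 43.2 and 46.7 against 9.92, 42.1 and 23.3. The sum thus does not stand for each of these cell types. The duct keratin Krt7 read 4821, 5064 and 5976 against 5486, 5349 and 6108. One array, control replicate 3, stood apart. The mean of 18 hypoxia and glycolysis genes, each centred on its mean over the 6 arrays, was 0.18, 0.18 and 0.30 on the log2 scale in TDP-43 siRNA cells and -0.51, -0.45 and 0.30 in control cells, so that this array stood with the TDP-43 siRNA arrays. Values without control replicate 3 are therefore given where that array bears on a member. In bulk RNA, fewer cells of a type and less RNA per cell cannot be told apart.

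Of the transsulfuration enzymes, that of the last step was chosen for its higher signal on these arrays. Its contrast with the enzyme before it is therefore a description only. Cth, the cystathionine gamma-lyase that releases cysteine, gave signals of 892, 804 and 1241 in TDP-43 siRNA cells, against 497, 473 and 545 in control cells. The lowest TDP-43 siRNA array was above the highest control array, and in each group the array numbered 3 was the highest. The mean signal was 979 ± 231 after TDP-43 siRNA and 505 ± 36.5 after control siRNA (SD, n = 3 each), a ratio of 1.94. On the log2 scale the difference was 0.92 (SE 0.14). Cth had only 1 probe set, 1426243_at, so no second reading of the transcript was at hand.

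The difference of Cth did not rest on the array of TDP-43 siRNA replicate 3, although that array gave its highest signal: it was 0.73 without it. It was 0.97 without control replicate 3, the array with the high hypoxia and glycolysis level. Ldha, a lactate dehydrogenase of the hypoxia and glycolysis list, read 4367, 4353 and 4547 in TDP-43 siRNA cells and 1829, 1884 and 4780 in control cells. Its control replicate 3 stood with the TDP-43 siRNA arrays. For Slc2a1 of the same list, that array stayed below the TDP-43 siRNA arrays, at 3178. Cth in that array was the highest of the controls and below every TDP-43 siRNA array. Both list genes were picked after their values were seen. Whether the hypoxia and glycolysis difference bears on Cth was not tested.

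**Figure D1:**
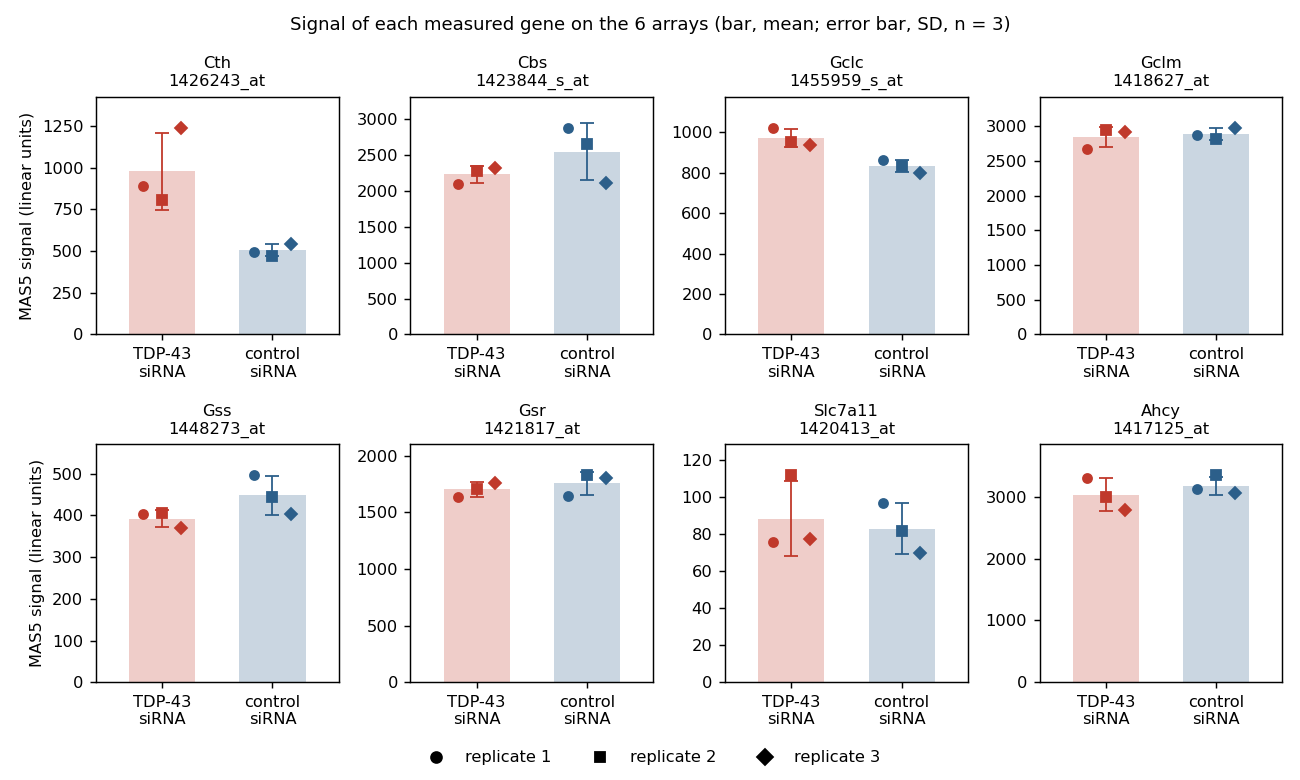
MAS5 signal (linear units, y axis from 0) of the brightest probe set of each measured gene, with TDP-43 siRNA left of control siRNA. Bars are means, error bars SD (n = 3) and symbols the replicates. Cth lies between 804 and 1241 in TDP-43 siRNA cells and between 473 and 545 in control cells, and the groups of Gclc are also apart, while those of the other 6 genes overlap.

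Cbs, the cystathionine beta-synthase that feeds Cth, leaned the other way. Its brightest probe set, 1423844_s_at, read 2095, 2275 and 2319 in TDP-43 siRNA cells and 2880, 2647 and 2112 in control cells, a difference of -0.18 (SE 0.11). The difference depended on single control arrays: it was -0.31 (SE 0.07) without control replicate 3, the lowest of them, and -0.09 (SE 0.10) without control replicate 1, the highest. The second probe set, 1425623_a_at, read 800, 910 and 933 in TDP-43 siRNA cells and 1013, 999 and 760 in control cells, with a difference of -0.06 (SE 0.12). On both probe sets the 3 TDP-43 siRNA arrays lay below control replicates 1 and 2, and control replicate 3 was the lowest of its group. Pearson's r of Cbs with Cth over the 6 arrays was -0.528 on log2 values. It is a description only, since Cth was chosen by this contrast.

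Upstream of Cbs, Ahcy splits S-adenosylhomocysteine into adenosine and homocysteine. Its single probe set, 1417125_at, gave 3309, 3003 and 2781 in TDP-43 siRNA cells and 3126, 3344 and 3061 in control cells. The groups overlapped, and the difference was -0.07 (SE 0.07).

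Of the 2 subunits of glutamate-cysteine ligase, the catalytic one had groups that did not overlap. The same held for 18.3% of all genes in either direction and for 9.98% as higher, so the separation is a description only. Gclc, the catalytic subunit and the rate-limiting step of glutathione synthesis, gave signals of 1024, 954 and 937 in TDP-43 siRNA cells and 861, 835 and 801 in control cells on 1455959_s_at. Its dimmer probe set, 1424296_at, gave 752, 755 and 802 in TDP-43 siRNA cells and 655, 596 and 620 in control cells. On both, every TDP-43 siRNA array was above every control array, with differences of 0.22 (SE 0.08) and 0.30 (SE 0.08). Gclc did not pass the adjusted threshold in the limma fit over all genes. Without control replicate 3 its brightest probe set was at 0.19.

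Gclm, the modifier subunit, which makes the catalytic subunit more active, showed no such separation. Its brightest probe set, 1418627_at, read 2673, 2940 and 2921 in TDP-43 siRNA cells and 2866, 2819 and 2977 in control cells, with a difference of -0.02 (SE 0.06). The second, 1439050_at, read 1016, 1144 and 1100 in TDP-43 siRNA cells and 1192, 1137 and 1146 in control cells, with a difference of -0.09 (SE 0.08). The groups overlapped on both.

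Gss, which adds glycine to gamma-glutamylcysteine, lay on opposite sides of 0 on its 2 probe sets. The brighter one, 1448273_at, read 403, 406 and 369 in TDP-43 siRNA cells and 496, 444 and 403 in control cells, a difference of -0.18 (SE 0.10). The other, 1441931_x_at, whose suffix marks probes that can read more than 1 transcript, was at 0.04 (SE 0.11). The 3 TDP-43 siRNA arrays of 1448273_at did not reach control replicates 1 and 2, but the size of the difference depended on single arrays and on the probe sets used. It was -0.25 (SE 0.10) without control replicate 3, -0.11 (SE 0.11) without control replicate 1 and -0.07 with the mean of both probe sets. Gsr, the reductase that turns oxidised glutathione back into glutathione, was at -0.04 (SE 0.07) on 1421817_at and at 0.04 (SE 0.07) on 1421816_at. Its signals of 1634, 1707 and 1762 in TDP-43 siRNA cells stood beside 1640, 1825 and 1802 in control cells, and the groups overlapped on both probe sets.

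Slc7a11, the cystine and glutamate exchanger also called xCT, was dim on these arrays. It read 75.4, 111 and 77.4 in TDP-43 siRNA cells and 96.8, 81.8 and 69.4 in control cells on 1420413_at, where the filter on low signals stood at 41.5. The difference was 0.07 (SE 0.21), and its sign turned to -0.09 when TDP-43 siRNA replicate 2 was left out and to -0.03 when control replicate 3 was. The second probe set, 1443536_at, read 61.9, 68.2 and 58.6 in TDP-43 siRNA cells and 39.2, 63.5 and 51.0 in control cells, at 0.26 (SE 0.22). These standard errors were close to the difference of Gclc, 0.22, which itself did not pass the adjusted threshold. A difference of that size in Slc7a11 could not have been told from none.

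**Figure D2:**
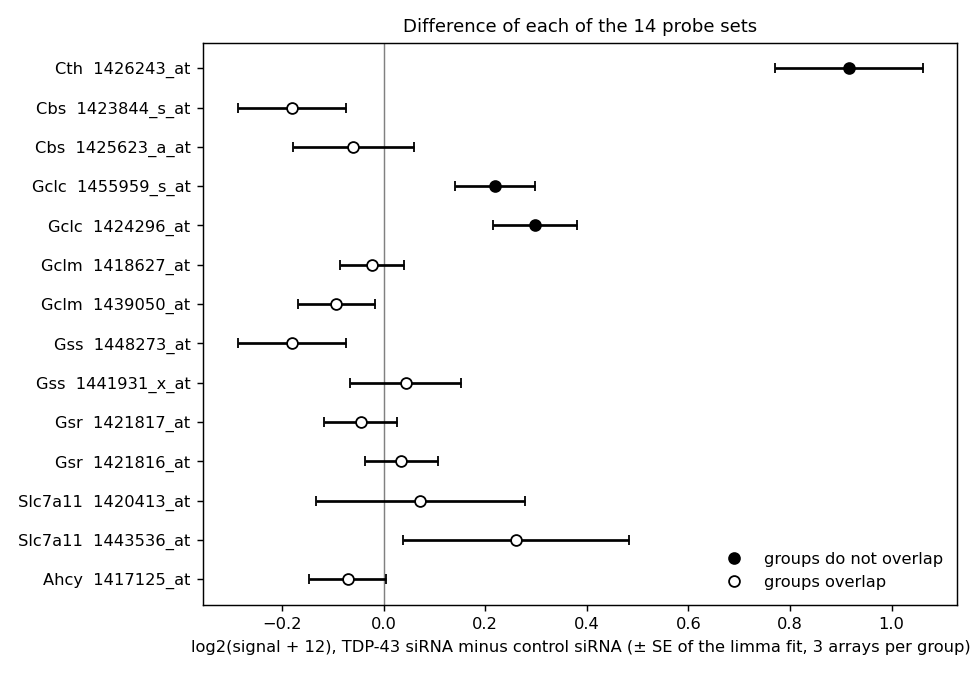
Difference in log2(signal + 12), TDP-43 siRNA minus control siRNA, for all 14 probe sets (x axis), with the standard error of the limma fit over probe sets. Filled points mark probe sets whose groups do not overlap, which are the one of Cth and both of Gclc, all above 0.

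All 14 probe sets and all 8 genes passed the filter that left out the dimmest 40% of probe sets. Of the 8 genes, 3 lay above 0 and 5 below, with a median of -0.03, where the median of all 12619 genes was 0.02 and 55.0% of them lay above 0. Cth was the 1 member past an adjusted p of 0.05 in the limma fit over all genes, in which 0.745% of genes passed in either direction and 0.166% as higher. The count was 0 when TDP-43 siRNA replicate 1, control replicate 1 or control replicate 2 was left out. The groups did not overlap for 2 members, Cth and Gclc, both higher, where this held for 18.3% of all genes in either direction and for 9.98% in the higher one. Of the probe sets, 3 of the 14 had groups that did not overlap, against 17.2% of all 27022 past the filter. Nothing is read from these counts, and the call on Cth is no test of it, since the members come from the same contrast. Without control replicate 3 the groups were apart for 4 of the 8 members, Cth and Gclc higher and Cbs and Gss lower. Of all genes 34.9% were then apart, 19.6% higher and 15.3% lower.

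Promoters were searched because genes under the transcription factors ATF4 and NRF2 are described below, and both factors are known to act on cysteine and glutathione genes. Windows from 250 bases before to 50 bases after the transcription start were matched by symbol for 6 of the 9 genes in the RefSeq promoter table of the mouse build GRCm38.p6: Ahcy, Cbs, Gclm, Gss, Mat2a and Slc7a11. Each was searched on both strands for the C/EBP-ATF response element TGATGNAAN and for the antioxidant response element TGACNNNGC, where N is any base. Among these 6, the first letters were found in the window of Slc7a11 alone, and the second in that of Gclm alone. Cth, Gclc and Gsr had no window in the table and were not searched. Of all 32851 windows in the table, 3.95% held the first and 12.4% the second. Only the 2 windows that held a match are given, 5′ to 3′ on the strand of the gene, with matches in capitals. The window of Slc7a11 is chr3:50443564-50443863, minus strand, and that of Gclm is chr3:122245307-122245606, plus strand.
Slc7a11: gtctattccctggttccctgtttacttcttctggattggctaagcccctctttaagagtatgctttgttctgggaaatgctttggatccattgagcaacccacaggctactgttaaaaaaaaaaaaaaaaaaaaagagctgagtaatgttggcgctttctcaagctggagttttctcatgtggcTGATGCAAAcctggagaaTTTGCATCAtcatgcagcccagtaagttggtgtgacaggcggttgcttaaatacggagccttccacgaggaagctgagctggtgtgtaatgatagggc
Gclm: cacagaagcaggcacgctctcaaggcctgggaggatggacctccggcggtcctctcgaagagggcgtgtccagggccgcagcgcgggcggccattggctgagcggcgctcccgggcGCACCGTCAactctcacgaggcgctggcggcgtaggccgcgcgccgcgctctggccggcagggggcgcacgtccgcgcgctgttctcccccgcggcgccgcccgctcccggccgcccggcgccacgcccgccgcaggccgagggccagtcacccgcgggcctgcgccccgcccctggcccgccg

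In Slc7a11 the 2 matches lay on opposite strands, and their first bases stood at positions -66 and -48 from the transcription start, counted so that the base before the start is -1. In Gclm the match was on the opposite strand with its first base at -134. A match is a run of letters and not a known site, and both genes had groups that overlapped.

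The genes around the pathway were taken from lists chosen with earlier results of these data known. The lists share genes, so their counts are not independent. Slc1a4, Slc1a5 and Slc3a2 of the transport list and Chac1 of the glutathione breakdown list are also in the ATF4 list. Abcc1 and Abcc4 of the transport list, and Txnrd1 and Srxn1 of the list that uses glutathione or thioredoxin, are also in the NRF2 list. Each gene was tested in the limma fit over all genes. In that fit 0.745% of all genes passed the adjusted threshold, and 6.75% of all genes were higher and 5.87% lower at an unadjusted p under 0.05. Of 17 measured genes of the methionine cycle and salvage pathway, 0 passed the adjusted threshold of 0.05 (limma), and 0 were higher and 2 lower at an unadjusted p under 0.05. Their median was 0.04. Icmt, a methyltransferase that uses S-adenosylmethionine, was at -0.37 (limma adjusted p = 0.0977), Mri1 of methionine salvage at -0.24, Mat2b, the regulatory partner of Mat2a, at 0.15, and Pemt, which makes phosphatidylcholine by methylation, at 0.28. Of 14 genes of cysteine breakdown and hydrogen sulfide handling, 0 passed by limma and 0 were below an unadjusted p of 0.05, with a median of -0.00496. Cdo1, the dioxygenase that commits cysteine to taurine and sulfate, was at -0.21, Sqor, which oxidises hydrogen sulfide, at -0.14, Kyat1 at -0.28 and Ado at 0.10.

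Of 14 genes of cystine, cysteine and glutathione transport, 0 passed by limma and 3 were higher at an unadjusted p under 0.05, with a median of 0.10. Slc1a4, a neutral amino acid carrier that takes up serine and cysteine, was at 0.50 (limma adjusted p = 0.0977). It read 607, 623 and 723 in TDP-43 siRNA cells and 491, 391 and 495 in control cells, and the groups did not overlap. Slc3a2, the heavy chain that carries Slc7a11 to the plasma membrane, was at 0.20 (limma adjusted p = 0.304) with signals of 3654, 3956 and 4263 in TDP-43 siRNA cells and 3489, 3176 and 3653 in control cells. Abcc5 was at 0.30 and Slc3a1, the partner of another cystine carrier, at 0.33.

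Of 9 genes of glutathione breakdown and recycling, 0 passed by limma and 2 were higher at an unadjusted p under 0.05. Dpep1, a dipeptidase that cleaves cysteinylglycine, had the widest difference of this list at 0.995 (SE 0.19, limma adjusted p = 0.0541). Its signals were low, at 88.6, 110 and 100.3 in TDP-43 siRNA cells and 42.97, 45.5 and 42.9 in control cells, and the control arrays stood close to the filter of 41.5. Chac1, which degrades glutathione inside the cell, was at 0.29 (limma adjusted p = 0.218), Chac2 at 0.08 and Cndp2 at 0.07.

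Of 31 genes that use glutathione or thioredoxin, 0 passed by limma, and 2 were higher and 2 lower at an unadjusted p under 0.05, with a median of 0.00239. Gstz1, a glutathione transferase of tyrosine breakdown, was at -0.31 (limma adjusted p = 0.0898), the mitochondrial thioredoxin Txn2 at -0.28, Gstt1 at 0.37 and Gstm5 at 0.19. Txn2 read 991, 996 and 995 in TDP-43 siRNA cells and 1245, 1177 and 1218 in control cells, with no overlap. Of the 2 measured genes of pyridoxal phosphate supply, the cofactor of Cth and Cbs, 0 passed by limma and 1 was higher at an unadjusted p under 0.05. Pdxk, the kinase that makes the cofactor's phosphate form, was at 0.13 and Pdxp, the phosphatase that undoes it, at 0.26.

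NRF2, encoded by Nfe2l2, drives Gclc, Gclm, Slc7a11 and Gsr under oxidative stress. Of 22 other genes of its axis, 0 passed by limma and 2 were higher at an unadjusted p under 0.05, and the median was 0.06. Above 0 lay 18 of the 22, where this held for 55.0% of all genes. The groups did not overlap for 3 of them, all higher, where this held for 9.98% of all genes. Hmox1, a haem oxygenase, was at 0.47 (limma adjusted p = 0.0995), with 1042, 968 and 1304 in TDP-43 siRNA cells and 823, 796 and 751 in control cells. Tkt of the pentose phosphate pathway was at 0.22, and it passed without control replicate 3 (0.27, limma adjusted p = 0.0444). That array gave its highest control signal and was left out after its values were seen. Pgd was at -0.23 and Me1 at 0.14. Nfe2l2 itself was at 0.01 and the NRF2 targets Txnrd1 at 0.03 and Srxn1 at 0.00451, all 3 named outside the naming rule after their values were seen.

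ATF4 is the transcription factor of the amino acid response, and Cth, Slc7a11 and Chac1 are among its known targets. Of 29 measured genes of its axis and of serine synthesis, 1 rose, 0 fell and 28 did not pass. The gene that rose was Slc7a3, a carrier of cationic amino acids, by 0.55 (SE 0.07, limma adjusted p = 0.00690). Its signals were 2340, 2326 and 2526 in TDP-43 siRNA cells and 1640, 1721 and 1527 in control cells. At an unadjusted p under 0.05, 20 of the 29 were higher and 0 lower, against 6.75% and 5.87% of all genes. The list's median was 0.25, and 27 of its genes lay above 0. The groups did not overlap for 14 of the 29, all higher, where this held for 9.98% of all genes.

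Serine supplies the carbon skeleton of the cysteine that Cbs and Cth make, and the list holds the enzymes that make it. Phgdh, the first enzyme of serine synthesis, read 2954, 2720 and 3439 in TDP-43 siRNA cells and 2304, 2295 and 1993 in control cells (0.46, limma adjusted p = 0.0667). Psph, the last enzyme of that route, was at 0.30 (limma adjusted p = 0.0819), and Eif4ebp1, a translation repressor, at 0.32 (limma adjusted p = 0.0582). For all 3 the TDP-43 siRNA arrays lay above the control arrays. Psat1, the enzyme between Phgdh and Psph, was at 0.20, and Shmt2 and Shmt1, which interconvert serine and glycine, were at 0.20 and 0.07, all 3 below the list's median and named outside the rule. Atf4 mRNA, named outside the rule, was at 0.25 (limma adjusted p = 0.189).

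The list's level per array is given beside those of Cth and of the hypoxia and glycolysis genes. Centred per gene, its mean was 0.06, 0.12 and 0.20 in TDP-43 siRNA cells and -0.18, -0.17 and -0.03 in control cells. The array numbered 3 was the highest of each group, as it was for Cth at 0.82 and -0.35 and for the hypoxia and glycolysis genes at 0.30 and 0.30. Without control replicate 3, 6 genes of the list passed by limma, namely Ddit3, Trib3, Ddit4, Vldlr, Slc7a3 and Eif4ebp1, all higher. Of all genes 1.12% then passed as higher, and the list's median was 0.29. The array was left out after its values were seen. It was the highest control array for all of these genes but Slc7a3, where it was the lowest, so the count is a description and no test of the list. Ddit4 read 2508, 2510 and 2491 in TDP-43 siRNA cells and 1442, 1363 and 2637 in control cells, so that its control replicate 3 stood with the TDP-43 siRNA arrays, as the hypoxia and glycolysis genes did. Of the 18 hypoxia and glycolysis genes themselves, 0 passed by limma with all arrays and 12 were higher at an unadjusted p under 0.05 (6.75% of all genes). Without control replicate 3, 14 passed. That array was singled out by its level of these same genes, so the 14 follows from the choice and is no test. The part of that array in the list's level was not tested beyond leaving it out.

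**Figure D3:**
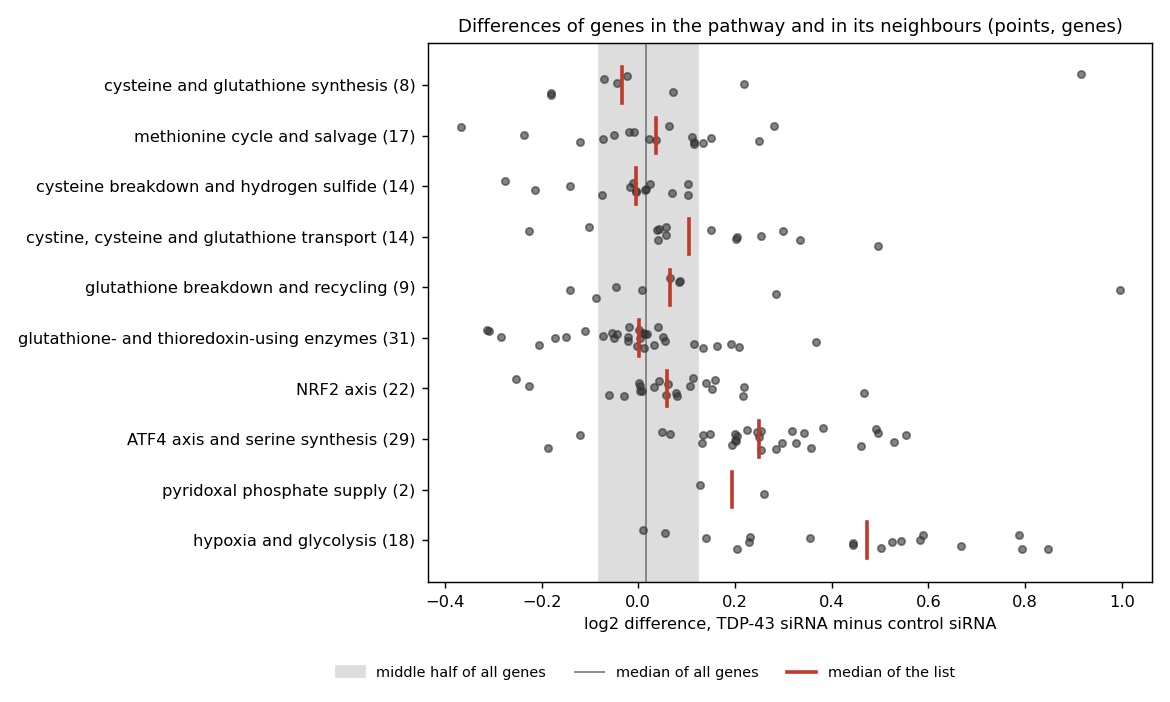
Log2 differences, TDP-43 siRNA minus control siRNA (x axis), of the genes measured in each list (points, with their number in brackets). Red marks are list medians, the grey line and band the median and the interval from the 25th to the 75th percentile of all genes. Most lists centre on the grey band. Medians above it are those of the ATF4 list (0.25), the hypoxia and glycolysis list (0.47) and the pyridoxal phosphate list (0.19).

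**Figure D4:**
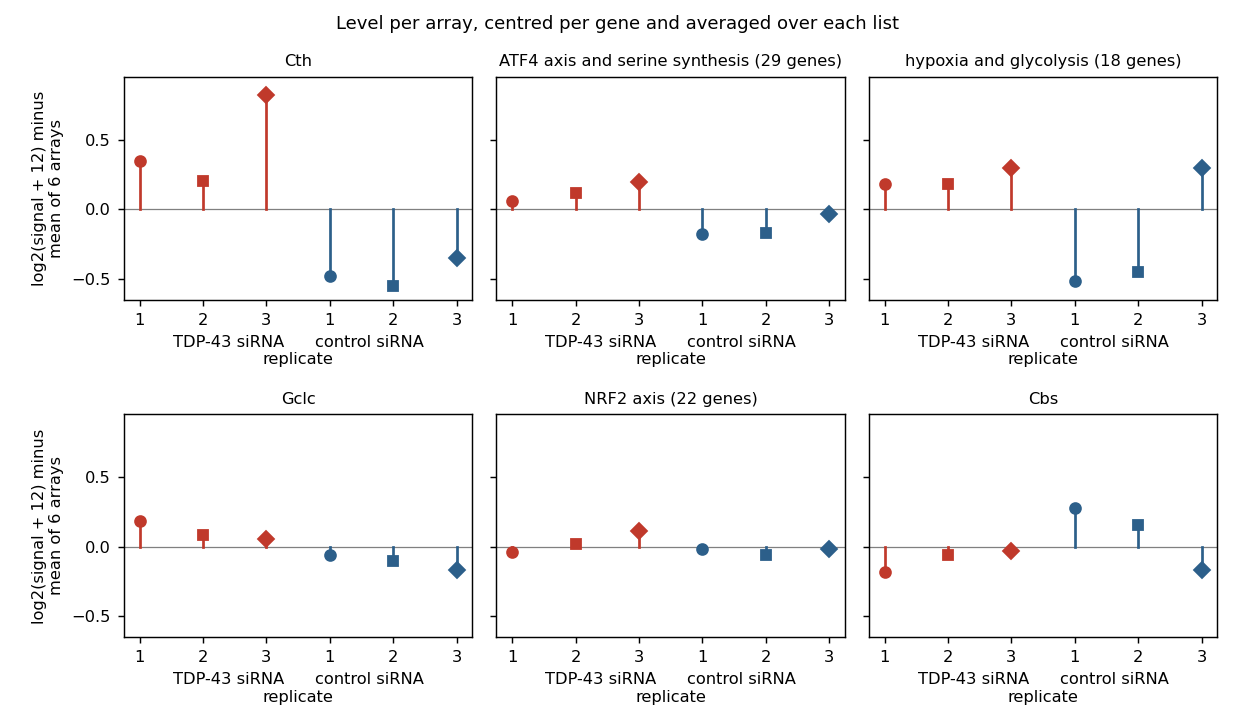
Log2(signal + 12) per array minus the mean of the 6 arrays (y axis), for Cth, Gclc and Cbs and as the mean over 3 lists, with TDP-43 siRNA replicates left of control replicates. Cth separates the groups with replicate 3 highest in each, Cbs is lowest in TDP-43 siRNA replicate 1 and control replicate 3, and the hypoxia and glycolysis genes of control replicate 3 lie with the TDP-43 siRNA arrays.

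Genes with the pattern most like Cth were ranked by Pearson's r of log2 values over the 6 arrays among 12618 other genes. All of the genes so ranked share the arrays and the siRNA contrast with Cth, and the values are a description only. The 5 highest were Alg11, a mannosyltransferase of N-glycan assembly (r = 0.989), Cry1, a circadian repressor (0.988), Slc23a4 (0.988), Exd2 (0.983) and Elavl3, a neuronal RNA-binding protein (0.983). The 3 lowest were C330007P06Rik (-0.995), Atp5h, an ATP synthase subunit (-0.995), and Abca5, a lipid transporter (-0.993). Their differences were smaller than that of Cth, from 0.24 to 0.37 for the 5 and from -0.51 to -0.18 for the 3. No member was among them: Gclc was at r = 0.764 and Gss at -0.804, and the other 5 members lay between -0.616 and -0.0688.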

How the data were processed

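Total RNA of MIN6 cells (100 ng) was turned into biotinylated cRNA with a GeneChip 3′IVT kit, per the labels' protocols. The authors deposited MAS5 signal intensities, as the submitters' processing notes state. The version was not given in the sources used here. From the values, each array has a trimmed mean of 500.003 (2% off each end) over 45101 probe sets. No detection calls were used. Gene names came from the platform annotation, with symbols updated through Entrez numbers in the RefSeq table of GRCm38.p6 (34741 of 34945 matched). After adding 12, values were log2-transformed, the dimmest 40% of probe sets and all control probe sets were left out, and each gene was represented by its brightest single-gene probe set (12619 genes). The group comparison used limma 3.58.1 under R 4.3.3 (intensity trend, two-sided, Benjamini-Hochberg over all genes), and other probe sets in the same fit over 27022 probe sets. Standard errors of brightest probe sets in the text come from the fit over genes. The limma fit was tested on simulated log2 values per gene, drawn independently for each array. The steps before the fit were not tested in this way.

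The members and lists were chosen with earlier results of these data known. The text names Tardbp, all members, up to 4 genes with the smallest p of each pathway list, and the 5 highest and 3 lowest correlates of Cth. Ldha, Ddit4 and others outside this rule were named after their values were seen. Of the lists of markers, the alpha, delta, PP and epsilon cell markers had 0 of 6 measured genes past the threshold (limma, 1 at an unadjusted p under 0.05) and the acinar and duct cell markers 0 of 4 (limma, 1 at an unadjusted p under 0.05). Alternatives were pseudocounts of 1 and 42, a 60% filter or none, median centring, quantile normalization, other variance models, array weights, averaged probe sets per gene, a replicate block and arrays left out.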

Additional observations from a re-analysis of the deposited data

How the results depend on the processing

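Over 18 alternatives the difference of Cth stayed between 0.73 and 1.04. The number of members past the threshold, from which nothing is read, was 0 with no filter, 0 without the intensity trend, and 0 to 1 when 1 array was left out. Cbs, Gclc, Gss, Gsr and Ahcy kept their sign throughout, while Gclm turned to 0.02 without TDP-43 siRNA replicate 1 and Slc7a11 turned in 2 alternatives. Slc7a11 did not pass the 60% filter. The 94 genes past the threshold became 51 with no filter, 12 without the intensity trend, 161 with array weights, 61 with the mean of probe sets, 214 without both arrays numbered 3, and 31 to 253 when 1 array was left out, with 253 without control replicate 3. The ATF4 list's count of 1 became 2 with the 60% filter, 0 without the intensity trend, 3 with array weights, 2 with the replicate block, 4 without both arrays numbered 3 and 1 to 6 with 1 array left out. The glutathione breakdown list gave 1 without the intensity trend and 1 with array weights, the NRF2 list 0 to 1 with 1 array left out, and the transport list 1 without both arrays numbered 3. The causes were not tested.

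With the replicate block 123 genes passed. Arrays of the same number had correlations of -0.123, -0.138 and 0.239 between their deviations from the group means, and the labels tie no number to a shared culture, so the numbers were not taken as pairs. Arrays numbered 3 correlated best with each other, and those numbered 1 and 2 did not. TDP-43 siRNA replicate 1 correlated best with control replicate 2 (0.296), and TDP-43 siRNA replicate 2 with control replicate 1 (0.226).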
